A study of Caenorhabditis elegans with 2 samples.

Results

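Neighbouring genes of Caenorhabditis elegans often begin close together, so that a single binding site can lie in the promoters of both. The regions described here are the CEBP-1 binding peaks that fall in such shared promoters. Within the series' conservative list they were chosen by position, without further use of their signal. The list itself holds only peaks that passed a threshold of reproducibility between the replicates. A peak was taken when its summit lay from 1000 bp upstream to 200 bp downstream of a 5′ end of at least 2 protein-coding genes. Of the 1546 peaks in the series' conservative list, 223 met this rule (14.4%). A further 656 summits lay in the promoter of 1 gene and 667 lay in none.

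The peaks come from chromatin immunoprecipitation sequencing (ChIP-seq) of whole young adult C. elegans of strain RW12290, carrying st12290[cebp-1::TY1::EGFP::3xFLAG] X. In this strain CRISPR was used to insert a TY1, EGFP and 3xFLAG tag at the endogenous cebp-1 gene, so the tagged protein is made from its own locus and every tissue that uses the gene contributes. Animals were collected at 62 hours after synchronisation by bleaching and starvation of the first larval stage. Chromatin was sonicated to fragments of 200 to 800 bp and, according to the sample description, precipitated with an antibody to GFP; the antibody field of the labels instead reads cebp-1. There was 1 group of 2 biological replicates, with no untagged or input sample used here, so no comparison between conditions could be made. The conservative list holds peaks that were reproducible between the replicates, and each peak's signal value is the authors' own score. No source used here says how that score was scaled to depth, and read depth is unknown.

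CEBP-1 is a basic leucine zipper (bZIP) protein of the C/EBP family, whose members bind DNA as dimers and act as transcription factors. In C. elegans it is known for roles in axon regeneration after injury and in responses to stress and infection. A divergent, or head-to-head, pair consists of adjacent genes on opposite strands that are transcribed away from each other, with their promoters in the stretch between them. Genes on the same strand can also have 5′ ends within reach of a single site, as when one short gene precedes another. Many worm messenger RNAs are trans-spliced to a short leader, which removes the original start of the transcript. Annotated 5′ ends are therefore often not the points where transcription starts, and the distances below are distances to annotated ends.

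The DNA beneath 8 of the strongest peaks is shown so that the arrangement of the binding sequence can be read directly. All are from the plus strand of ce11 (WBcel235), and none overlaps an exon of a protein-coding gene. Capitals mark the 8-base word TTGCGAAA or its reverse complement TTTCGCAA, which contains the TTGC that begins the classical C/EBP site. The word was taken up because an earlier search of these lists ranked it first at CEBP-1 summits, so its presence there is not independent evidence. Most windows span 121 bp centred on the summit. They are WBGene00194913/WBGene00185102 at chrIV:15646771-15646891, icd-1/vps-32.1 at chrII:6589071-6589191, F13A7.11/F13A7.12 at chrV:16395311-16395431, hat-1/M03C11.3 at chrIII:10407402-10407522, mel-46/lsy-13 at chrIV:16863597-16863717, alx-1/mog-1 at chrIII:9956802-9956922 and, as the same-strand example, pqn-51/K11D12.14 at chrV:5049443-5049563. For C49G7.10/irg-2 the whole 159 bp between the 5′ ends is given, at chrV:4042022-4042180. The windows of WBGene00194913/WBGene00185102 and pqn-51/K11D12.14 hold no copy of the word, and those of F13A7.11/F13A7.12 and mel-46/lsy-13 hold 2 each. The same-strand example is not typical of the strongest same-strand peaks. The 2 stronger ones, at F26D11.12/F26D11.13 and B0041.5/B0041.12, each had 1 copy within 100 bp of the summit.
WBGene00194913/WBGene00185102: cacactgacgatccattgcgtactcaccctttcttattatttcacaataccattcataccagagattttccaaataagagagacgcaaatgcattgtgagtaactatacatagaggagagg
icd-1/vps-32.1: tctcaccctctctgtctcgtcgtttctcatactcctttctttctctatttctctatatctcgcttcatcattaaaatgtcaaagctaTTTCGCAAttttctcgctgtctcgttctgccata
F13A7.11/F13A7.12: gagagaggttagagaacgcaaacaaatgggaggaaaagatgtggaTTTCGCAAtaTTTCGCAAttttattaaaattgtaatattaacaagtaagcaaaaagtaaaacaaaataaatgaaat
hat-1/M03C11.3: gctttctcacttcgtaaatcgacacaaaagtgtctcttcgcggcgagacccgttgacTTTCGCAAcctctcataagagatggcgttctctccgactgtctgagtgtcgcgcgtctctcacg
C49G7.10/irg-2: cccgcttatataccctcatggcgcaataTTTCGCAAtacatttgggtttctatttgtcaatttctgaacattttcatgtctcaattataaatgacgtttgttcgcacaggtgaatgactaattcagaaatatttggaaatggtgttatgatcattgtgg
mel-46/lsy-13: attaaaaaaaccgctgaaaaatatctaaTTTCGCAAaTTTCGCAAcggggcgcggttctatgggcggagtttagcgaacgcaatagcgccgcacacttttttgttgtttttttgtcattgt
alx-1/mog-1: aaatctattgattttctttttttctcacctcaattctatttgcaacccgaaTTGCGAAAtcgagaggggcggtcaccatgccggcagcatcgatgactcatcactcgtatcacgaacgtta
pqn-51/K11D12.14: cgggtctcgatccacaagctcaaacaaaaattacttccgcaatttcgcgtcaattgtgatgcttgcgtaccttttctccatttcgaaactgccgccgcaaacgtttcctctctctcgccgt

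Of the 223 peaks, 203 had a divergent nearest pair (91.03%, 95% Wilson interval 86.6 to 94.1%) and 19 had a same-strand pair (8.52%, 5.52 to 12.9%). The remaining peak lay where the 5′ ends of Y17G7B.20 and ash-2 pass each other head-on, with end positions 6 bp apart. The gene ash-2 encodes a subunit of histone H3 lysine 4 methyltransferase complexes. In 211 cases exactly 2 genes were in reach, and in 12 cases a further gene lay within the window. The nearest gene was paired with the nearest opposite-strand gene in reach, a rule that favours the divergent label in those 12. With exactly 2 genes in reach, 90.5% of peaks were divergent (85.8 to 93.8%). The divergent layout is also common in the annotation itself. The windows that both promoters of neighbouring divergent pairs cover sum to 2050744 bp, beside 2716752 bp of shared promoter bases in all. An exact division of those bases between divergent and same-strand pairs was not measured, so the divergent share of peaks is not a trait of binding. The peaks touched 213 distinct pairs and 438 genes, which is 2.19% of the 19973 protein-coding genes, against 1010 genes with a summit in any promoter. For 10 pairs, 2 peaks of the list lay in the same shared promoter, but these were not always separate. At R107.5/cls-2 the 2 peaks overlapped and took the same replicate values (54.5 and 77.3). Of the 223, 10 overlapped another conservative peak, and 217 remained when overlapping peaks were merged.

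The 25 strongest peaks were nearly all divergent, as were the 223 as a whole. Of the 25 strongest, 24 lay at divergent pairs and 19 had a copy of TTGCGAAA within 100 bp of the summit. In the strongest 25% of the list the word was at 54.1% of shared-promoter peaks, 63.8% of single-gene promoter peaks and 57.8% of peaks outside promoters. All of the 25 strongest overlapped a thresholded peak in both replicates, but they were picked by a signal that rests on the same replicates. The genes on their flanks had varied functions.

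The strongest peak, chrIV:15646672-15647004, lay between WBGene00194913 and WBGene00185102, 161 bp and 363 bp upstream of their 5′ ends. The series list scored it 992; replicate 1 scored it 572, and replicate 2 scored it 419.6. It carried no TTGCGAAA, and the annotation gives neither gene a name. Next was chrI:9665075-9665345, 35 bp upstream of cel-1, the messenger RNA capping enzyme, and 301 bp upstream of npp-14, a nucleoporin. Its signal was 946, with 575 and 377 in replicates 1 and 2. The peak at icd-1 and vps-32.1 (chrII:6588955-6589301) lay almost midway in a 1053 bp gap, 476 bp and 577 bp from the ends. The first gene encodes the beta subunit of the nascent polypeptide-associated complex and the second an ESCRT-III subunit that sorts membrane proteins. Its signal was 896, with 535 and 353 in the replicates.

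Another nucleoporin gene, npp-6, shared the peak chrI:5176298-5176570 with spd-5, which encodes the scaffold of the centrosome. The summit was 409 bp from npp-6 and 712 bp from spd-5, with a signal of 813 and replicate values of 460 and 348. F13A7.11 and F13A7.12, with ends 735 bp apart, flanked the peak chrV:16395231-16395484 of signal 718 (434 and 267), its summit 67 bp from the first. At hat-1, a histone acetyltransferase gene, and its neighbour M03C11.3, the signal was 701, with 413 and 291 in the replicates. The summit of that peak (chrIII:10407343-10407594) was 214 bp upstream of hat-1 and 754 bp upstream of M03C11.3. In these top peaks replicate 1 gave the higher score throughout, as it did at 179 of the 218 shared-promoter peaks scored in both ranked lists, where the median ratio of replicate 1 to replicate 2 was 1.30. The lists were scored separately, so this ratio is not a difference in binding.

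A compact example was the infection response gene irg-2, whose 5′ end is 160 bp from that of C49G7.10. The peak chrV:4041924-4042205 covered the whole gap, with its summit 44 bp upstream of C49G7.10 and 116 bp upstream of irg-2. Its signal was 686, with 408 and 263 in replicates 1 and 2. The pair mel-46, a DEAD-box RNA helicase gene, and lsy-13 had its 5′ ends 389 bp apart and a summit near the middle, 176 bp and 213 bp away. This peak (chrIV:16863545-16863766) had a signal of 582, with 376 and 206 in the replicates. At the other extreme, ccar-1 and lst-4, a sorting nexin gene, have 5′ ends 1688 bp apart, and the summit lay 822 bp and 866 bp from them. That signal was 402 (253 and 159.5), and the sequence beneath the summit held 2 copies of the word, 1 on each strand.

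The remaining strong pairs held genes of varied roles. The diacylglycerol acyltransferase gene dgat-2 shared a peak of signal 517 with the F-box gene fbxa-108, and dagl-2, a diacylglycerol lipase gene, shared one of 443 with the phosphatase gene ppm-1.G. The acyltransferase gene acl-14 and ucp-4, a mitochondrial uncoupling protein gene, flanked a peak of 428. The DNA primase gene pri-2 with W02D9.2 (501), smc-6, a genome maintenance gene, with pcs-1, the phytochelatin synthase gene (435), and the GMP synthetase gene gmps-1 with the actin capping gene cap-2 (386) belonged to the same set. The ESCRT-associated alx-1 and the splicing helicase gene mog-1 flanked a peak of 512 in a gap of 1136 bp. The ribosomal protein gene rpl-15 and K11H12.8 flanked one of 489.8 without TTGCGAAA, scored 291 and 222 in the replicates. The others were tasp-1 with K01G5.10 (551), C06B3.7 with C06B3.6 (549.7), W05H12.4 with C01A2.1 (406), cyp-33C7 with cyp-33C6 (391), Y73E7A.1 with bre-4 (383), fbxc-54 with F23F1.5 (360.1), F26D11.12 with F26D11.13 (355) and dnj-13 with F54D5.9 (338).

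**Figure D1:**
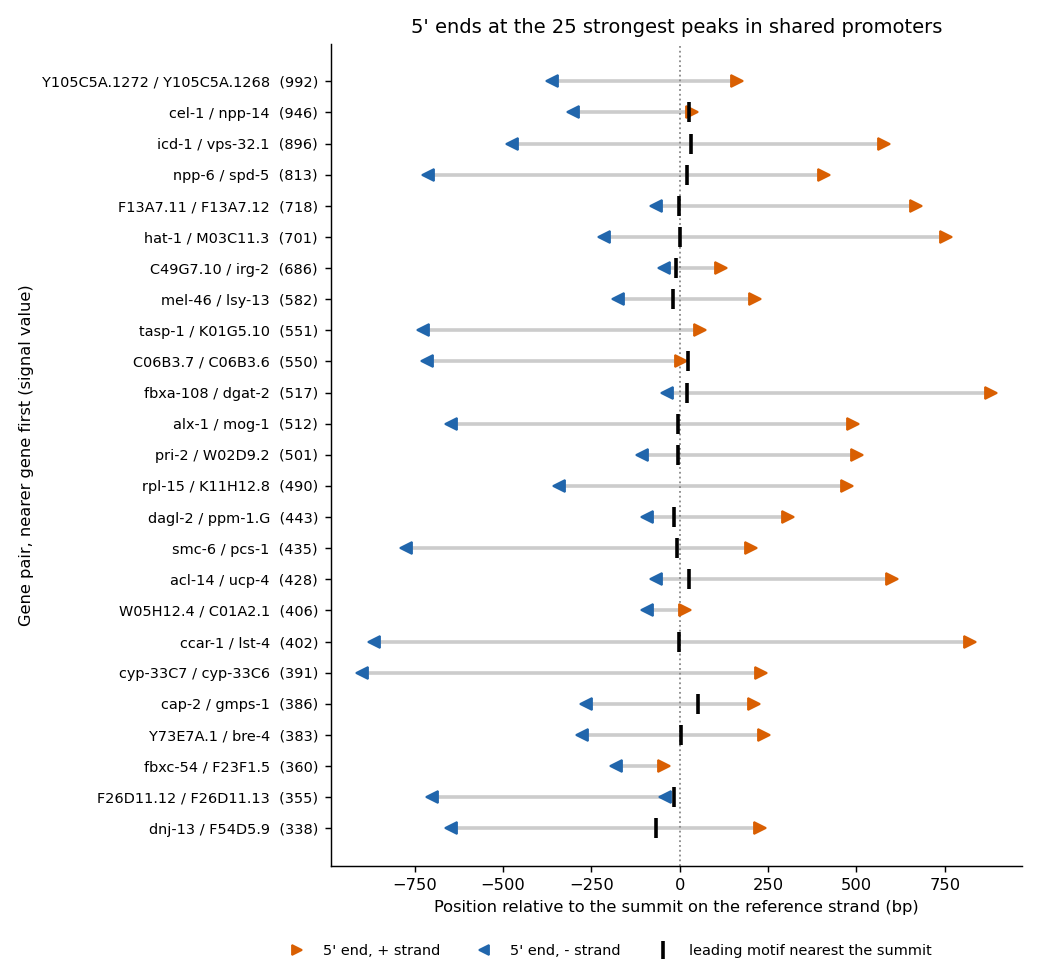
Positions of the annotated 5′ ends (triangles, coloured and pointed by strand) and of the nearest TTGCGAAA (black tick) relative to the summit (dotted line, 0 bp) at the 25 strongest shared-promoter peaks, with signal values in brackets; the unnamed top pair appears under its transcript sequence names. The summit lies between outward-pointing ends in most pairs, and 19 of the 25 peaks have a tick.

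Same-strand pairs fell into tight and wide spacings. Among the 19, the 5′ ends were under 50 bp apart in 6 and over 400 bp apart in 11, with a median of 438 bp and a range of 11 to 977 bp. Their median signal was 109 (quartiles 92.7 and 143), beside 136.5 (101.2 and 239) at divergent pairs. The strongest lay 42 bp upstream of F26D11.12 and 702 bp upstream of F26D11.13 and had a signal of 355, with 246 and 103 in the replicates. The next was at B0041.5 and B0041.12, whose ends are 14 bp apart, with a signal of 327 (195 and 128). At pqn-51 and K11D12.14, 29 bp apart, the signal was 259.7 (145 and 115.4). Closely spaced same-strand ends of this kind are annotated as separate genes, and the position of the peak cannot assign it to one of them.

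Where 3 genes were in reach, the strongest peaks were at cux-7, C07H6.2 and the DNA ligase gene lig-4 (signal 262), at K10D2.5, the splicing factor gene prp-19 and emb-1 (262), and at elof-1, a transcription elongation factor gene, lin-7 and Y54G11A.17 (211). In 5 pairs both genes carried the same name root. They were the cytochrome P450 genes cyp-33C7 and cyp-33C6, the F-box genes fbxa-26 and fbxa-27 (signal 107), the splicing SR protein genes rsp-1 and rsp-2 (103), tag-267 and tag-266 (91.9), whose root is a provisional label, and the cyclin T genes cit-1.2 and cit-1.1 (79.8).

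Divergent 5′ ends were a median of 611 bp apart (quartiles 376.5 and 913, range 15 to 1845 bp). The shortest gaps were those of F25H9.7/F25H9.6 (15 bp), Y57E12AL.1/Y57E12AL.6 (82 bp), ears-2/uncp-18 (92 bp), W05H12.4/C01A2.1 (106 bp) and fbxa-82/C25D7.5 (120 bp, signal 81.5). The glutamyl-tRNA synthetase gene ears-2 is mitochondrial, and its peak had a signal of 146 (85.6 and 62.4). The longest were those of W02B12.11/mfn-1 (1845 bp), ccar-1/lst-4 (1688 bp), T22C1.1/nmy-2 (1687 bp), ipla-6/mif-4 (1659 bp) and pals-31/F48G7.10 (1626 bp). The nonmuscle myosin gene nmy-2 had its 5′ end 921 bp from a summit of signal 88.8 (62.5 and 49.9). By the rule, a gap can be no longer than the reach of both promoters allows.

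The summit usually lay between the 5′ ends. It did so at 187 of the 203 divergent pairs (92.1%, 87.6 to 95.1%), and at the other 16 it had passed one end into the gene. Of the 187, 83 summits (44.4%, 37.4 to 51.5%) lay more than 33.3% of the gap away from both ends, 60 lay between 16.7 and 33.3% of the gap from the nearer end, and 44 lay within 16.7% of it. In gaps over 1000 bp the rule itself keeps summits away from the ends. In the 151 gaps of up to 1000 bp, where every position was allowed, the same classes held 59 (39.1%, 31.7 to 47.03%), 50 (33.11%) and 42 (27.8%, 21.3 to 35.4%), with overlapping intervals. The nearer 5′ end was a median of 155 bp away (quartiles 67.5 and 252 bp) and the farther 451 bp (255.5 and 709 bp). Both ends were within 200 bp of the summit in 36 of the 223 peaks and within 500 bp in 124. Summits in the promoter of 1 gene lay farther out, at a median of 261.5 bp (141 and 537.5 bp), although 2 candidate ends give a nearer one more often by construction.

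With wider gaps the summit lay farther from both genes. With ends 1 to 400 bp apart (60 peaks) the nearer and farther ends were at medians of 67 and 200.5 bp. With ends 401 to 800 bp apart (78 peaks) they were at 179.5 and 411.5 bp, and with ends 801 to 2000 bp apart (65 peaks) at 323 and 798 bp. The signal differed little across these classes, with medians of 142, 141 and 122 and overlapping quartiles.

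The annotation holds 2671 neighbouring divergent pairs with 5′ ends up to 2000 bp apart, and 190 of them (7.11%, 6.2 to 8.15%) had a conservative summit in the window that both promoters cover. The bound pairs had ends a median of 588 bp apart and the 2481 others 673 bp. The share of pairs with a summit was 6.16% at 1 to 200 bp, 8.80% at 201 to 400 bp, 8.55% at 401 to 600 bp, 9.92% at 601 to 800 bp and 9.29% at 801 to 1000 bp, with overlapping intervals. It was 5.39% at 1001 to 1500 bp and 1.21% at 1501 to 2000 bp, where the window common to both promoters narrows by the rule. Counted per length of window, there were 116 summits per Mb at 1 to 200 bp (17 summits) and 129 at 201 to 400 bp (45 summits). The values lay between 90.6 and 97.3 at 401 to 1000 bp. They were 72.7 per Mb at 1001 to 1500 bp and 47.7 at 1501 to 2000 bp, the last from 4 summits. No intervals were computed for these densities. The windows also differ, since those of short gaps reach into both genes and those of gaps over 1000 bp do not.

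**Figure D2:**
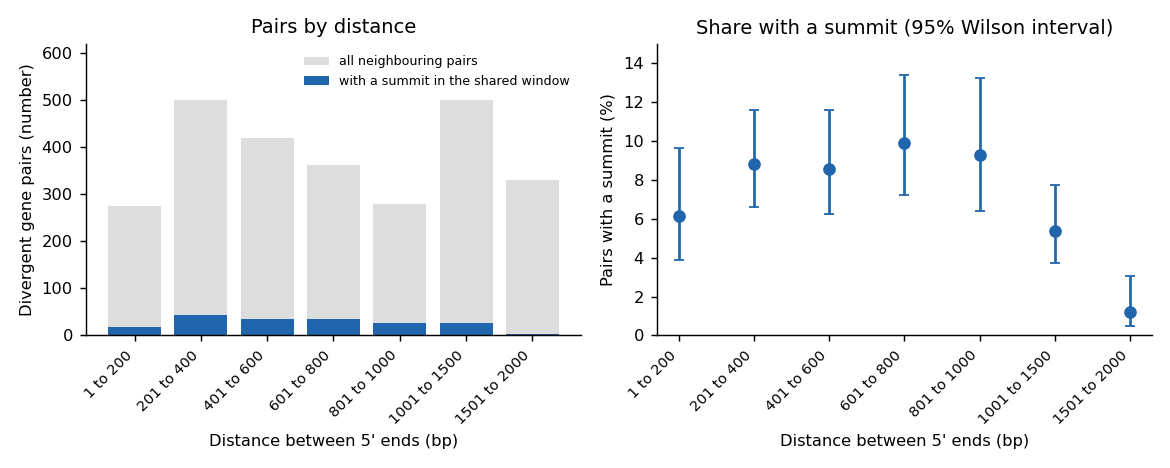
Neighbouring divergent gene pairs by the distance between their 5′ ends (bp): on the left the number of all pairs (grey) and of those with a summit (blue), on the right the share with a summit, with 95% Wilson intervals. Shares lie between 6.16 and 9.92% up to 1000 bp and reach 1.21% at 1501 to 2000 bp.

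Shared promoters held a larger share of the promoter summits than of promoter length. They make up 10.3% of all promoter bases (2716752 of 26317241 bp), yet held 25.4% of the 879 promoter summits (22.6 to 28.3%). Among the 49247 ranked peaks that were left out of the conservative list, 13888 had a summit in a promoter, and 12% of these were in a shared one. The density of conservative summits was 82.1 per Mb in shared promoters, 27.8 in promoters of 1 gene and 9.02 elsewhere, so the first exceeded the second 2.95 times. A shared base lies in the promoters of at least 2 genes but was counted once, so counted per promoter the ratio would be lower. Whether the excess goes beyond this double coverage was not tested.

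The excess per base was present at every distance from the nearer 5′ end. Within 100 bp there were 83.1 summits per Mb in shared and 26.3 in single-gene promoters, and at 101 to 200 bp there were 79 and 35. At 201 to 300 bp, where both kinds were densest, the values were 142 (exact Poisson interval 101.2 to 193) and 52.5 (42.8 to 63.7). At 301 to 500 bp they were 69 and 30.5, and at 501 to 1000 bp 52 and 19.2. The ratio ranged from 2.26 to 3.16, and the intervals of the 2 kinds of promoter did not overlap in any of the 5 distance classes.

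**Figure D3:**
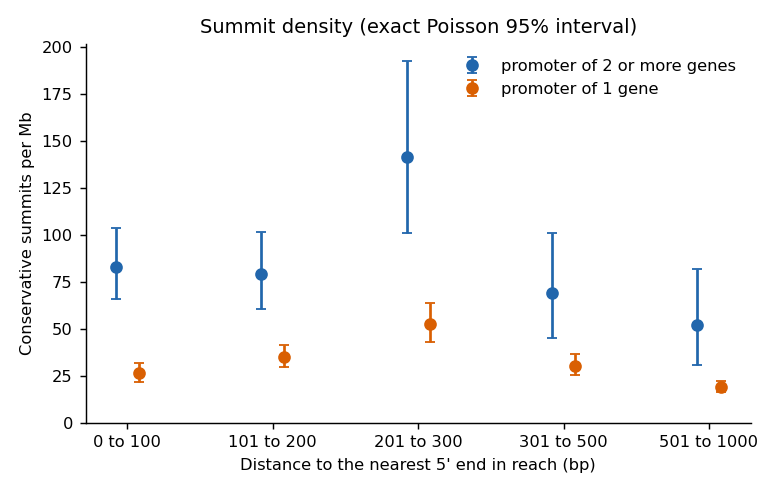
Conservative summits per Mb (vertical axis) by distance to the nearest 5′ end in reach (bp), in promoters of 2 or more genes (blue) and of 1 gene (orange), with exact Poisson 95% intervals for counting error. Blue lies above orange in each class, with 142 against 52.5 per Mb at 201 to 300 bp.

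The chromosomes differed in how many such peaks they carried. Chromosome V had 52, III had 50, I had 44, IV had 37, II had 30 and X had 10. On X they were 3.04% of 329 peaks, whereas on the autosomes they were 13.5 to 19.3%. Shared bases were also scarcer there, at 4.51% of the promoter bases of X against 10.7 to 12.3% on the autosomes. The density ratio of shared to single-gene promoters was 1.58 on X and 2.38 to 3.93 on the autosomes, with V highest. Among neighbouring divergent pairs, 4.86% of 185 on X had a summit (2.58 to 8.99%), 10.97% of 401 on III (8.28 to 14.4%) and 5.38% of 483 on II (3.70 to 7.77%). The strongest of the X peaks lay 19 bp inside nmat-1, a NAD synthesis gene, and 405 bp upstream of ucr-2.1, which encodes a core protein of respiratory complex III, with a signal of 296 (178 and 124 in replicates 1 and 2).

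Peaks in shared promoters stood somewhat higher in the full conservative list than other peaks, at a median percentile of 60.8 (54.4 to 66.8), but among those that pass a stricter global IDR of 0.001 the median percentile was 52.3 (44.9 to 58.5), and in the list of replicate 2 alone it was 55.9 (45.6 to 67.2). Their median signal was 134 (quartiles 100.6 and 222), beside 118 (90.3 and 187) for promoters of 1 gene and 107 (86.0 and 155) outside promoters, and the quartile ranges overlapped widely. Of the 223, 74 were among the strongest 25% of all conservative peaks (33.2%, 27.3 to 39.6%), against 27% (23.7 to 30.5%) of single-gene promoter peaks and 20.2% (17.4 to 23.5%) of peaks outside promoters. The weakest 25% held 31 of them (13.9%, 9.97 to 19.1%), against 23.8% (20.7 to 27.2%) and 29.8% (26.5 to 33.4%). The highest signals of the series were elsewhere, since no shared-promoter peak exceeded 992 and the top single-gene peak reached 3014.

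The share of shared-promoter peaks recovered in both replicates depended on the list. It was 43.3% with the optimal list and 81.3% with a global IDR of at most 0.001. Across all conservative peaks 44.4% overlapped a thresholded peak in each of the 2 replicates, and in shared promoters 124 did (55.6%, 49.04 to 61.98%), beside 45.4% (41.7 to 49.3%) for single-gene promoters and 39.6% (35.9 to 43.3%) outside. In replicate 2, 139 were thresholded (62.3%, 55.8 to 68.4%), against 49.8% (46.0 to 53.7%) of single-gene promoter peaks and 46.0% (42.3 to 49.8%) of peaks outside promoters. In replicate 1 the shares were 78.5% (72.6 to 83.4%), 78.4% (75.04 to 81.3%) and 70.01% (66.4 to 73.4%). A further 51 were thresholded in replicate 1 alone, 15 in replicate 2 alone and 33 in neither. The median score was 81.4 in replicate 1 and 60.3 in replicate 2, and across the 218 peaks with both values the Spearman correlation was 0.77. These points come from the lists on which the peaks were selected, so the correlation is only a description.

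The strongest peaks missed by one replicate were of middling signal. Without a thresholded peak in replicate 1 were those at sec-61.G, a translocon subunit gene, with F32D8.13 (143), at R107.5 with cls-2, a microtubule-binding CLASP gene (136.5), and at C28G1.2 with the exocyst gene sec-15 (134). Without one in replicate 2 were those at spcs-2, a signal peptidase gene, with mrg-1 (175), at rad-50, a DNA repair gene, with slfl-5 (160.3), and at rpl-7 with rab-11.1 (149). Each of these 6 had a ranked peak in both replicates.

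**Figure D4:**
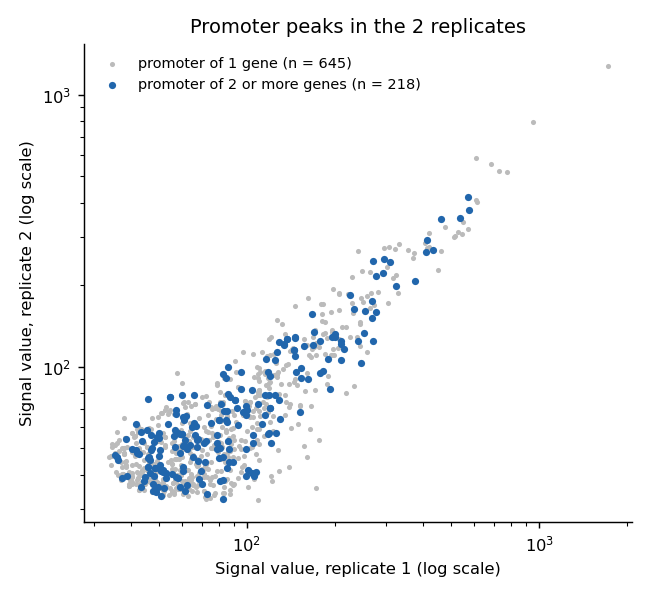
Signal values of promoter peaks in replicate 1 (horizontal, log scale) and replicate 2 (vertical, log scale), for shared promoters (blue, 218 peaks) and promoters of 1 gene (grey, 645 peaks). Blue points run along the same diagonal as grey ones, and the single-gene peaks reach higher values.

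The word TTGCGAAA, searched on both strands within 100 bp of the summit, was about as frequent in shared promoters as in other peaks. It was present at 67 of the 223 (30.04%, 24.4 to 36.4%), at 31.6% (28.1 to 35.2%) of single-gene promoter summits and at 25.19% (22.04 to 28.6%) of summits outside promoters, against 28.6% of all conservative peaks. Midpoints of the 2481 neighbouring divergent pairs without a summit held it in 2.38% (1.85 to 3.06%) of windows of the same 201 bp. The rest of those gaps was not searched.

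Peaks with the word were the stronger ones. The 156 shared-promoter peaks without it had a median signal of 117 (93.9 and 164), the 59 with 1 copy 191 (143 and 336), and the 8 with at least 2 copies 357 (163 and 447). It occurred in 54.1% of those among the strongest 25% of the list (42.8 to 64.9%, n = 74), in 29.2% (n = 65) and 11.3% (n = 53) of the next classes, and in 6.45% (1.79 to 20.7%, n = 31) of the weakest. Single-gene promoters ran from 63.8% to 11.5% over the same classes, with overlapping intervals at each step.

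Within the shared promoters the word lay close to the summit and read in either direction. Its centre was a median of 20.5 bp from the summit (quartiles 7.5 and 31.5 bp), and within 50 bp in 59 of 67 cases. It read TTGCGAAA on the coding strand of the nearer gene in 32 of 67 (47.8%, 36.3 to 59.5%). In 54 of the 61 divergent pairs with the word, the word itself lay between the 5′ ends. Its frequency was 31.7% at pairs up to 400 bp apart, 26.9% at 401 to 800 bp and 32.3% above that.

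**Figure D5:**
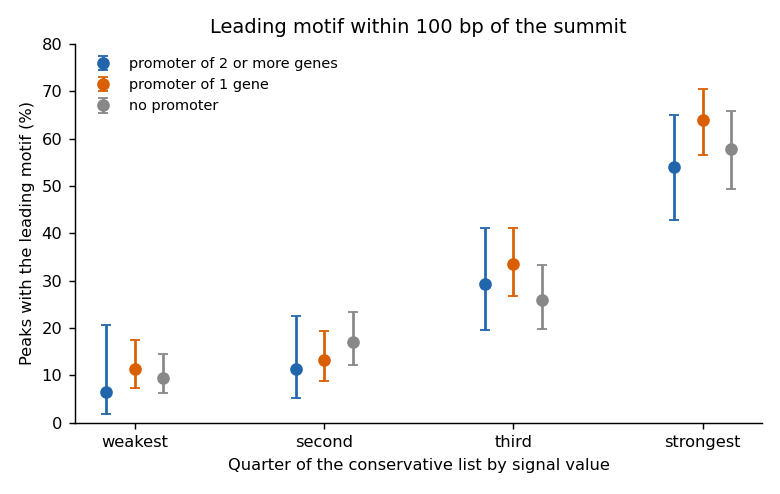
Share of peaks (%) with TTGCGAAA within 100 bp of the summit, by class of signal value (each 25% of the conservative list, weakest first), for shared promoters (blue), promoters of 1 gene (orange) and no promoter (grey), with 95% Wilson intervals. In shared promoters the share runs from 6.45% in the weakest to 54.1% in the strongest class.

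The other 10 words searched in the same windows included C/EBP variants, sites of other factors and promoter elements. The looser C/EBP core TTGCNNAA, which includes TTGCGAAA, TTGCGTAA and TTGCGCAA, was found at 46.2% (39.8 to 52.7%) of shared-promoter summits, 41.6% of single-gene ones and 22.3% of midpoints without a summit. Full C/EBP variants were rare, with the palindrome TTGCGCAA at 3 summits and TTGCGTAA at 2. The C/EBP-ATF composite word TTGCATCA occurred at 3 and TTACGTAA, the palindrome of the PAR group of bZIP proteins, at 1. The AP-1 word TGACTCA was present at 5 (2.24%, 0.961 to 5.14%) against 6.25% (4.64 to 8.37%) in promoters of 1 gene, and the E-box CACGTG at 5.38% against 7.77%, with overlapping intervals. GAGAGA occurred at 30.5% of shared-promoter summits, 34.8% of single-gene ones and 12.1% of midpoints, and GGGCGG at 9.87, 10.1 and 4.76%. TATAAA was less frequent at shared-promoter summits (14.3%, 10.4 to 19.6%) and single-gene ones (18.6%, 15.8 to 21.8%) than at midpoints (27.3%, 25.6 to 29.1%). The base composition of the midpoint windows was not measured. The mean GC content around the summit was 42.1% ± 7.13 (SD, n = 223) in shared and 42.0% ± 7.86 (SD, n = 656) in single-gene promoters. A match describes the letters in the window and does not show a bound site.

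Genes from 14 textbook lists, chosen with earlier results known, stood at many of the pairs. Most lists are of basic cell functions, but those nearest to CEBP-1's own known pathways, with zip-4 and nipi-3, are counted too. At least 1 gene of the pair was listed at 80 of the 223 peaks (35.9%, 29.9 to 42.4%), and both were at 12. Among neighbouring divergent pairs a listed gene was present at 69 of the 190 with a summit (36.3%, 29.8 to 43.4%) and at 290 of the 2481 without (11.7%, 10.5 to 13.01%). Listed genes make up 4.23% of all protein-coding genes and held 14.5% of the summits in promoters of 1 gene. These shares count single genes, whereas either gene of a pair could be the listed one, which raises the pair shares by construction. Among the 80 annotated cytosolic ribosomal protein genes, 15 had a shared-promoter summit (18.8%, beside 2.19% of all protein-coding genes). A summit in any promoter was held by 22, against 1010 of all 19973 genes. Ribosomal protein genes also had divergent neighbours often, 48 of 80, compared with 5342 of all 19973 genes. Of those 48 genes 13 had a shared-promoter summit, against 392 of the 5342. Besides rpl-15, the strongest were at rpl-20 with Y17G9B.5 (signal 327, with replicate values of 167 and 156) and rps-19 with hsr-9 (253; 145.5 and 109).

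Genes for protein synthesis and folding were counted in the same way, beside the 2.19% of all protein-coding genes. The shares with a shared-promoter summit were 16.4% for translation, 22.2% for chaperone and 18.2% for endoplasmic reticulum genes. Of 55 genes for translation factors and tRNA synthetases 9 had such a summit, icd-1 first, then iff-2, the eIF5A gene (252; 162 and 89.7), and eef-1A.1, an elongation factor 1A gene that shared its peak with the replication factor gene rfc-4 (239; 147 and 95.9). Of 36 cytosolic and mitochondrial chaperone genes 8 did, led by dnj-13, the chaperonin subunit gene cct-8 (274; 146.5 and 128) and hsp-60 (161; 97.2 and 67.9). In the endoplasmic reticulum list the count was 8 of 44, with dnj-28 (177.5; 104 and 82.3), spcs-2 and trap-3 leading. The genes trap-3, for a translocon-associated protein, and sec-61.B, for a translocon subunit, shared a single peak of 163 (82.7 and 94.0). All 9 translation genes and all 8 genes in each of the folding lists have a divergent neighbour by annotation. Genes with such a neighbour number 32 in the translation, 20 in the chaperone and 23 in the endoplasmic reticulum list. Among all 5342 genes with such a neighbour, 392 had a shared-promoter summit.

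Among the genes for respiration, nuclear transport and membrane traffic the counts varied more. The shares were 17.1% for oxidative phosphorylation, 7.89% for nuclear pore, 8.89% for trafficking and 4.35% for proteasome genes. Of those with a divergent neighbour, 6 of 25, 3 of 25, 11 of 46 and 3 of 36 had a shared-promoter summit. The count was 1 of 30 for mitochondrial ribosome and import genes and 392 of 5342 for all genes. Of 41 oxidative phosphorylation genes 7 had a shared-promoter summit, with nduf-2.2 beside the dynein light chain gene dlc-1 the strongest (333; 215.5 and 116), then ucr-2.1 and atp-5 (122; 65.0 and 59.8). Of 77 mitochondrial ribosome and import genes 2 did (2.6%, near the 2.19% of all genes), mrps-7 (309.6; 209 and 106) and ddp-1 (98.1; 55.5 and 40.2). Nuclear pore and transport genes numbered 3 of 38, which were npp-14, npp-6 and npp-3, the last shared with the topoisomerase gene top-2 (131; 86.6 and 49.8). Trafficking genes numbered 12 of 135, led by vps-32.1, rab-14 and the V-ATPase gene vha-17 (189.8; 119 and 70.3). Proteasome and ubiquitin genes numbered 3 of 69, namely the conjugating enzyme gene ubc-6 (172; 84.9 and 90.7), the lid subunit gene rpn-3, which shared its peak with hsp-110 (123; 57.1 and 69.4), and the deubiquitinase gene usp-14 (106; 60.2 and 50.9).

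Splicing, capping and mRNA decay genes numbered 7 of 66, with cel-1, mog-1 and lsm-7 at the strongest peaks; lsm-7 shared its peak of 326 (209 and 124) with the dynactin gene dnc-1. Transcription and chromatin genes numbered 8 of 67, led by the RNA polymerase subunit gene rpb-12 (192; 129.8 and 63.9), ash-2 (182; 86.0 and 99.5) and set-16, an H3K4 methyltransferase gene (172; 95.8 and 82.4). Cell cycle, centrosome and replication genes numbered 8 of 89, led by spd-5, the kinesin gene klp-18 (279; 192 and 83.0) and rfc-4. The shares were 10.6% for splicing, 11.9% for transcription and 8.99% for cell cycle genes, beside 2.19% of all genes. Of those with a divergent neighbour, 7 of 33, 7 of 23 and 6 of 52 had a shared-promoter summit, against 392 of 5342 genes. The remaining pairs with both genes listed included rpl-7 with rab-11.1, the tubulin gene tba-1 with cox-5B (108; 45.9 and 76.2), and the adaptin gene apb-1 with mdt-19, a Mediator gene (91.1; 41.7 in replicate 1 and no ranked peak in replicate 2).

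In each of the 2 lists nearest to CEBP-1's own known pathways, 1 gene had a shared-promoter summit, a share (3.13 and 4.55%) near the 2.19% of all protein-coding genes. Counted over all promoters the lists stood higher, with 11 of 32 and 4 of 22 genes against 1010 of all 19973. Of 32 genes for bZIP and other stress transcription factors, 11 had a summit in some promoter and zip-4 had one in a shared promoter, opposite nol-58, a snoRNP gene. That peak was weak, at 85.2, with 43.8 in replicate 1 and no ranked peak in replicate 2. Of 22 genes in the DLK-1, p38 and Tribbles list, 4 had a promoter summit, and nipi-3, a Tribbles pseudokinase gene, was the one in a shared promoter. Its shared peak, chrX:15606873-15607176, lies 944 bp upstream of nipi-3 and 390 bp upstream of the Rab GTPase gene rab-14, with a signal of 191 (95.2 and 95.9). The far stronger peak nearest nipi-3 is out of reach of rab-14 and is not among the 223. The lists hold few genes with a divergent neighbour, 4 of 32 and 3 of 22.

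Some members rest on little evidence. The signal of 6 was below the lowest replicate 1 value of any of the 223 (35.5), and 5 of these overlapped another conservative peak, so that a replicate peak spanning both was counted for each. The sixth, the second peak at pqn-51/K11D12.14, had a signal of 15 but took the same replicate values of 145 and 115.4 as the stronger peak beside it. The lowest was W02B12.11/mfn-1 at 5.50, against 82.5 and 32.7 in the replicates. The intervals of 13 of the 223 were not in the optimal list, and 1 of those overlapped an entry of it. No ranked peak of replicate 1 overlapped 2 of the 223, and none of replicate 2 overlapped 3. The summit lay inside an annotated non-coding gene at 21, of which 3 involved a tRNA gene and 18 other non-coding RNAs alone.

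The number of peaks depends on where the promoter limits are set. Nearest to them on the inner side, 1 peak of signal 75.6 was 991 bp upstream of ehbp-1 and 183 bp inside nstp-10, and another of 12.9 was 187 bp inside icl-1. On the outer side, a peak of 215 near tbca-1 lay 1009 bp upstream of eif-2gamma, a translation initiation factor gene.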

How the data were processed

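Peak lists of anti-GFP ChIP-seq were available for 2 biological replicates of 1 group and for the series as a whole. The authors' deposited signal value per peak was used as given, for ranking and description only; the scaling, the peak caller and the caller settings are not given in the labels or headers. The authors' deposited −log10 of the global irreproducible discovery rate (IDR) was taken from the ranked list that contains each thresholded interval. The summit is the deposited interval start plus the deposited summit offset. Coordinates are ce11 per the labels, read on WBcel235 with the Ensembl release 115 annotation and printed 1-based. Per the labels the replicates are separate biosamples; their spread may still be partly technical. Read depth is unknown.

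All 5′ ends annotated for protein-coding transcripts were used, and the nearest end of each gene defined distances. The nearest pair was the nearest gene with the nearest gene on the opposite strand. Where no opposite-strand gene was in reach, the next nearest gene was taken. A gene without a name takes the sequence name of its transcript, or its identifier. A replicate's value is that of the strongest peak of its own list overlapping by at least 1 bp. Shares carry 95% Wilson intervals, and densities by distance to the nearer 5′ end carry exact Poisson intervals. Both express counting error alone, as if peaks were independent. No test was run, since 1 group gives no comparison and peaks are not replicates. Words were searched within 100 bp of the summit on both strands. Of 868 list entries 17 had no match in the annotation.

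The members, words and lists were chosen with earlier results of these data known. Genes were named by signal: the 25 strongest peaks, the 3 strongest of each arrangement, of 3-gene promoters, of those missed by a replicate and of each list, pairs with both genes listed, the 5 shortest and 5 longest gaps, and peaks at the limits. Pairs with a common name root, peaks outside these rules and the weakest members were named after their values were seen. The assignment of summits to promoters was tested on simulated data. Computation was in Python 3.11.15 with pandas 2.3.3, numpy 2.4.6 and scipy 1.17.1, and plots were drawn with matplotlib 3.10.9. The alternatives were the optimal list, a stricter IDR, each replicate's own list, overlapping peaks merged, other promoter limits, exactly 2 genes in reach, the outermost 5′ end of each gene, other word windows, and a replicate summit within 100 bp as the overlap rule.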

Additional observations from a re-analysis of the deposited data

How the results depend on the processing

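Of 67 values recomputed under the alternatives, 52 stayed within their interval or within 1.5 times the count and 15 moved. Moved by the promoter limits were the number of shared-promoter peaks (123 with 500 bp upstream to 100 bp downstream, 381 with 2000 bp upstream to 200 bp downstream), the shared share of promoter summits (18.7 and 35.5%) and the divergent distance (406 and 932.5 bp); the wider limit also gave 83.5% divergent. With a global IDR of at most 0.001 the shared share of promoter summits was 29.6%, the median signal percentile 52.3 (44.9 to 58.5, an interval that includes 50; 60.8 in the full list, each ranked within itself), TTGCGAAA was at 40.7% and overlap with both replicates at 81.3%. With the optimal list that overlap was 43.3%. On the list of one replicate alone, without replicate 1 or without replicate 2, there were 139 to 237 such peaks, making 27.1 to 29.8% of promoter summits, with TTGCGAAA at 35.4 to 38.8%; 139 is the count without replicate 1. Apart from these constructions (fewer peaks, other windows), the cause was not tested.

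No paired analysis was possible because there is 1 group. Unknown depth, the absence of control samples here, whole-animal chromatin and annotated 5′ ends limit every value: a summit between a pair of genes does not show which of them, if either, responds.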
